A study of Oryza sativa Indica Group with 5 samples.

Results

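The light-harvesting antenna genes LHCA and LHCB were examined in developing rice seed as 9 loci of the MSU rice annotation, 6 classed as LHCB and 3 as LHCA, out of 48857 loci on the array. The loci were chosen by name, as antenna protein genes, and matched to the locus names of the array after the isoform suffix was removed. All 9 had a probe, and 12 probes represented them. The deposited files pair no locus name with a gene name, so the classing into LHCB and LHCA, and that of the further gene lists below, rests on general knowledge of these loci.

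The seed came from 5 rice accessions (Oryza sativa, Indica group), each on 1 single-colour array. Seed of 3 accessions was of the high-amylose type and carried haplotype 8, and seed of the other two was waxy and carried haplotype 4, waxy grain being grain with little or no amylose in its starch. The untreated plants were kept in a glasshouse, with 29 °C in daytime and 21 °C at night, and seed was taken at 16 days post-anthesis, with total RNA extracted from 200 mg of ground seed. An accession is a distinct genetic stock, so a group difference also holds the other genetic differences between these few accessions, and p-values measure only the spread between them.

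Antenna proteins are encoded in the nucleus, imported into the chloroplast, and bind chlorophyll and carotenoids in the thylakoid membrane. LHCA proteins form the antenna belt of photosystem I, and LHCB proteins form the trimers and the minor monomers of the antenna of photosystem II. In a developing cereal grain the green, chloroplast-bearing cells lie in the pericarp around the endosperm, and antenna transcripts are common markers of such tissue. In whole ground seed, fewer green cells and less antenna RNA per green cell cannot be told apart.

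Signal is given as log2 of processed spot intensity relative to the 75th percentile of each array, so that percentile is 0. As intensity it was 183, 108 and 88.8 for high-amylose replicates 1, 2 and 3, and for waxy replicates 1 and 2 it was 203 and 212. High-amylose replicates 2 and 3 were thus dimmer than the other 3 arrays, and they shared a scan date. The waxy arrays shared another scan date and high-amylose replicate 1 had its own, so the effect of the group and that of the scan date cannot be told apart. All 8 tested markers of endosperm were well above background on every array, at 3.70 to 10.84 on this scale. The lowest of these values was that of LOC_Os06g04200, known from general knowledge as the Waxy locus of amylose synthesis. It was at 7.96, 8.46 and 8.32 in high-amylose seed, at 8.21 on waxy replicate 1 and at 3.70 on waxy replicate 2. Transcript signal of this locus thus did not set waxy replicate 1 apart from the high-amylose arrays, and results are given below without each waxy array.

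All 9 antenna loci were higher on average in high-amylose seed than in waxy seed, and none passed the test. Their log2 differences, high-amylose minus waxy, ran from 0.74 to 2.45 with a median of 2.03, which is 4.09-fold. The median over all 28945 tested loci was 0.03, and 53.9% of them had a difference above 0. With the 3 loci that were not well above background on either waxy array set to the lower limit of their difference, the antenna median was 1.47. Those limits take high-amylose replicate 1 at its measured signal, which was not well above background at these loci. LHCB loci had a median of 1.92 (6 loci) and LHCA loci of 2.15 (3 loci), or 1.67 and 1.15 with those lower limits. In a limma fit across all tested loci, 0 of the 9 passed a Benjamini-Hochberg adjusted p of 0.05, and each had an adjusted p of 1.00. Over all loci 8 passed, or 0.0276%. Before adjustment 2 antenna loci, LOC_Os07g37240 and LOC_Os08g33820, had a limma p under 0.05, as did 3.4% of all loci. With every probe tested apart, 0 of 11 antenna probes passed, against 0.0196% of 35634 probes. The high-amylose and waxy arrays did not overlap at 1 antenna locus, LOC_Os08g33820, against 13.5% of all loci. Under normexp background correction with quantile scaling the antenna median was 0.65. That setting adds 50 to each signal before log2, by construction shrinking differences of dim probes.

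**Figure D1:**
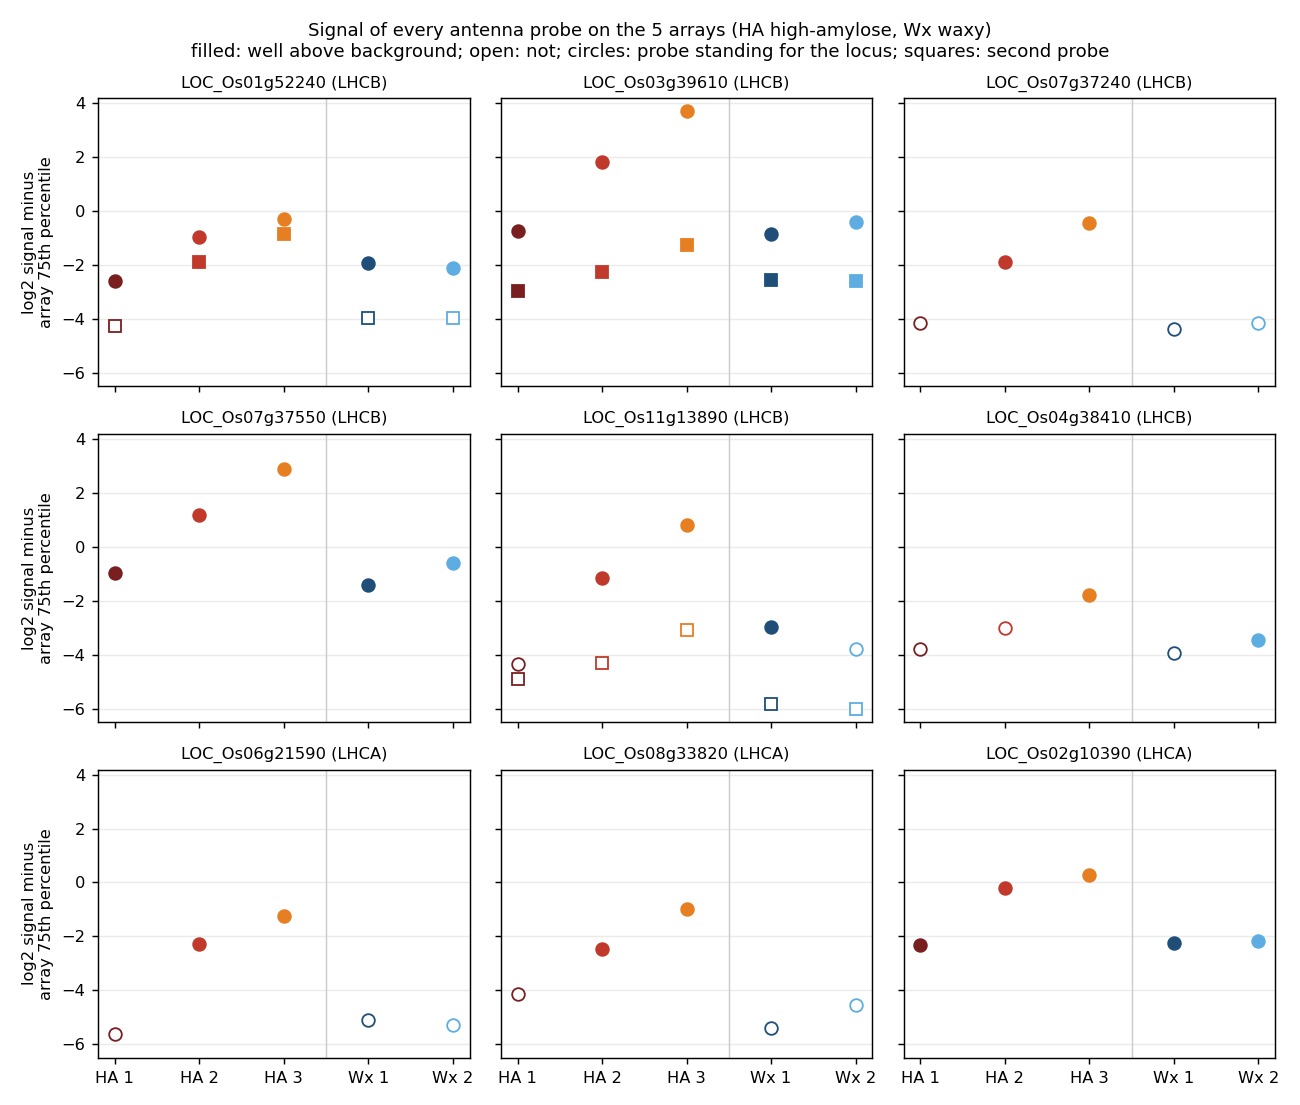
Log2 signal minus the array's 75th percentile (y axis) for the 12 antenna probes on the 5 arrays (x axis: HA, high-amylose replicates 1 to 3; Wx, waxy replicates 1 and 2), 1 panel per locus, with filled symbols for spots well above background, circles for the probe that stands for the locus and squares for a second probe. At every probe high-amylose replicate 3 is the highest point and replicate 2 the next, while replicate 1 lies near the waxy arrays at most loci.

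Among the LHCB loci, LOC_Os03g39610 on chromosome 3 and LOC_Os07g37550 on chromosome 7 were well above background on all 5 arrays. LOC_Os03g39610 had signals of -0.74, 1.81 and 3.69 in high-amylose replicates 1, 2 and 3, and of -0.87 and -0.42 in waxy replicates 1 and 2. Replicate 1 lay between the waxy arrays, and replicates 2 and 3 stood far above them. The group means were 1.59 ± 2.23 (SD, n = 3) and -0.65 (n = 2), a difference of 2.23 with a standard error of 1.02 (limma adjusted p = 1.00). LOC_Os07g37550 was at -0.96, 1.19 and 2.88 in high-amylose seed and at -1.41 and -0.59 in waxy seed, again with replicate 1 between the waxy values. Its difference was 2.03 with a standard error of 0.92 (limma adjusted p = 1.00).

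LOC_Os07g37240, the other LHCB locus of chromosome 7, is separated from LOC_Os07g37550 by 27 array loci in the order of locus names. It gave -4.17, -1.88 and -0.44 in high-amylose seed, against -4.40 and -4.16 in waxy seed. It was well above background on high-amylose replicates 2 and 3 only. With replicate 1 at its measured signal, the high-amylose mean was at least 2.87-fold the waxy mean. The fitted difference was 2.12 with a standard error of 0.89 (limma adjusted p = 1.00). LOC_Os11g13890 on chromosome 11 was at -4.37, -1.15 and 0.81 in high-amylose seed and at -2.97 and -3.80 in waxy seed. High-amylose replicate 1 was here the lowest of the 5 arrays, and it and waxy replicate 2 were not well above background. With the widest spread of the 9 loci among the high-amylose arrays (SD 2.62, n = 3), its difference was 1.82 with a standard error of 1.18 (limma adjusted p = 1.00).

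The smallest differences among the LHCB loci belonged to LOC_Os01g52240 on chromosome 1 and LOC_Os04g38410 on chromosome 4. LOC_Os01g52240 was at -2.59, -0.96 and -0.31 in high-amylose seed, against -1.93 and -2.13 in waxy seed, well above background throughout. Both waxy arrays lay above high-amylose replicate 1 and below replicates 2 and 3, and the difference was 0.74 with a standard error of 0.64 (limma adjusted p = 1.00). LOC_Os04g38410 was at -3.80, -3.01 and -1.79 in high-amylose seed and at -3.94 and -3.45 in waxy seed. It was well above background on high-amylose replicate 3 and waxy replicate 2 only. Its difference was 0.83 with a standard error of 0.59 (limma adjusted p = 1.00), and replicate 1 lay between the waxy arrays.

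Among the LHCA loci, LOC_Os08g33820 on chromosome 8 was the one antenna locus at which all high-amylose arrays lay above both waxy arrays. Its signal was -4.13, -2.48 and -0.97 in high-amylose seed and -5.41 and -4.55 in waxy seed. Neither high-amylose replicate 1 nor the waxy arrays were well above background, so their order is that of dim spots. With replicate 1 at its measured signal, the high-amylose mean was at least 2.22-fold the waxy mean. The fitted difference was 2.45 with a standard error of 0.80 (limma adjusted p = 1.00). LOC_Os06g21590 on chromosome 6 was at -5.61, -2.26 and -1.23 in high-amylose seed and at -5.10 and -5.27 in waxy seed. It too was well above background on high-amylose replicates 2 and 3 only. With replicate 1 as measured, this gives at least 1.57-fold (fitted 2.15, standard error 1.04, limma adjusted p = 1.00). LOC_Os02g10390 on chromosome 2 was well above background on all 5 arrays, at -2.33, -0.19 and 0.29 in high-amylose seed and at -2.26 and -2.17 in waxy seed. Its waxy values differed by 0.09 from each other, high-amylose replicate 1 lay just below them, and the difference was 1.47 with a standard error of 0.71 (limma adjusted p = 1.00).

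A second probe was present for 3 of the LHCB loci, and in each case the arrays took the same order at the top. The second probe of LOC_Os01g52240 was at -4.27, -1.88 and -0.85 in high-amylose seed, against -3.97 on both waxy arrays. It was not well above background on high-amylose replicate 1 or in waxy seed, and its difference of 1.64 exceeded the 0.74 of the first probe. The second probe of LOC_Os03g39610, designed to isoform 1 of the locus where the first is listed for isoform 2, was at -2.96, -2.26 and -1.27 against -2.55 and -2.60. Its difference of 0.41 was below the 2.23 of the first probe, so the size of the difference at this locus depended on the probe. The second probe of LOC_Os11g13890, listed for isoform 5, exceeded background on no array by that criterion and was not tested. Antenna genes are members of a family of similar sequences, and cross-hybridisation between them was not tested.

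The spread within the high-amylose group was larger than the distance of its replicate 1 from waxy seed. At all 9 loci, and for all 12 probes, high-amylose replicate 3 was the highest array and replicate 2 the next. Over all tested loci, 19.1% took that order and 25.5% had both arrays above the other 3. Some antenna loci were tested only because replicates 2 and 3 were well above background, so this count is no support for the order. From replicate 1 to replicate 3 the antenna loci differed by 2.01 to 5.18 on the log2 scale, with a median of 3.73 against 0.17 over all loci. The difference from replicate 1 to replicate 2 had a median of 2.15, against 0.24 over all loci. Where both arrays were well above background, replicate 3 exceeded replicate 1 by 21.6-fold at LOC_Os03g39610, 14.3-fold at LOC_Os07g37550, 6.18-fold at LOC_Os02g10390 and 4.87-fold at LOC_Os01g52240. These folds are those of the probe that stands for the locus. The second probe of LOC_Os03g39610, also well above background on all 5 arrays, differed by 1.69 on the log2 scale, against 4.43 for the first. At the other 5 loci replicate 1 was not well above background, and replicate 3 was at least 3.43-fold (LOC_Os04g38410) to at least 20.8-fold (LOC_Os11g13890) higher.

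The median SD among the 3 high-amylose arrays was 1.88 over the antenna loci and 0.50 over all loci, and 12.2% of all loci had an SD above 1, as all 9 antenna loci did. At 5 of the 9 replicate 1 was not well above background, so their SD rests partly on dim spots. Of the 9, 3 were tested only through replicates 2 and 3, so this count is no support for a wider spread. The waxy arrays differed from each other by a median of 0.45 at the antenna loci and of 0.34 over all loci. High-amylose replicate 1 differed from the waxy mean by -0.98 to 0.85, with a median of -0.10, and by less than 0.5 at 6 loci. It lay below both waxy arrays at 4 loci, against 39.3% of all loci.

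The 2 arrays with the most antenna signal were the dimmest ones, and scaling raises values on dim arrays relative to bright ones. Before any scaling between arrays, the processed intensity was highest on high-amylose replicate 3 for all 12 probes, 1 of them well above background on no array. Counts of unscaled intensity were not made over all probes, and the part of scaling in the array order was not tested. The intensity of the first probe of LOC_Os03g39610 was 110, 379 and 1148 in high-amylose replicates 1, 2 and 3, against 111 and 158 in waxy seed. At LOC_Os07g37550 it was 94.4, 246 and 652 against 76.4 and 141. For the second probe of LOC_Os03g39610 it was 23.6, 22.5 and 36.8 against 34.6 and 34.8, with replicate 2 the lowest array. Unscaled intensity on replicate 2 exceeded replicate 1 and both waxy arrays for 9 of the 12 probes. The part of the shared scan date of replicates 2 and 3 in this pattern was not tested.

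**Figure D2:**
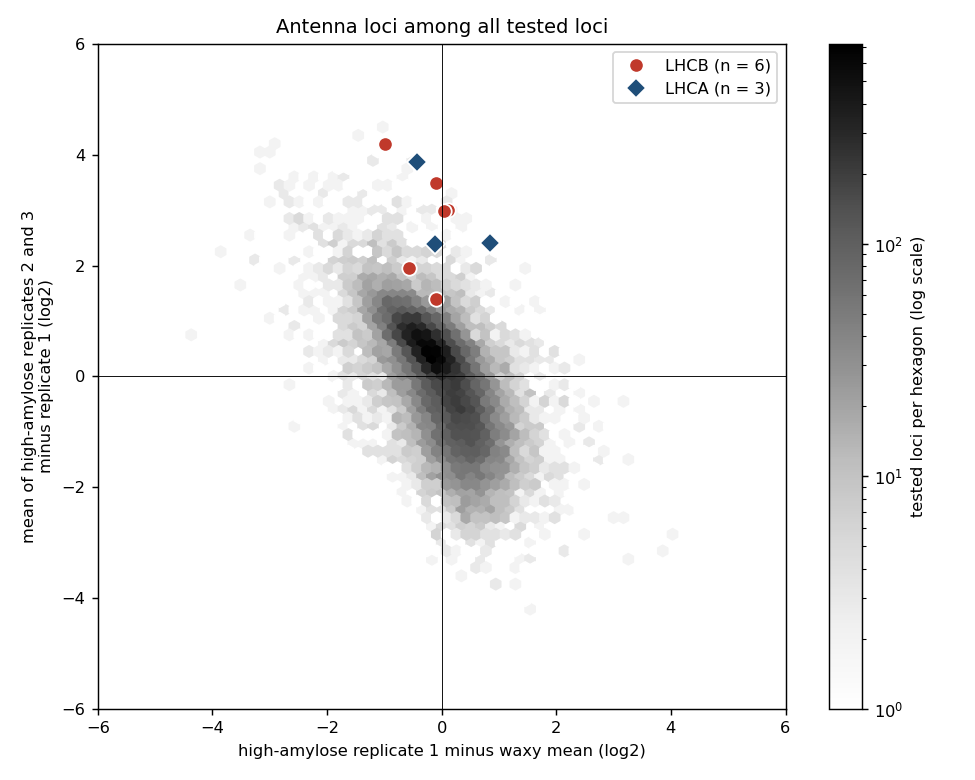
Mean of high-amylose replicates 2 and 3 minus replicate 1 (y axis, log2) against high-amylose replicate 1 minus the waxy mean (x axis, log2), with grey hexagons for all 28945 tested loci, circles for LHCB and diamonds for LHCA. Both axes hold replicate 1, which tilts the grey cloud downward, and 16 loci outside ±6 are not drawn. The 9 antenna loci lie near 0 on the x axis and at 1.40 to 4.20 on the y axis, where 4.62% of all loci reach 1.40 or more.

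The group difference changed with the arrays used. Without high-amylose replicate 1, the antenna loci were 1.30 to 3.44 higher in high-amylose seed, with a median of 3.12, and the groups did not overlap at any of the 9, against 48% of all loci. The unadjusted limma p was then under 0.05 at all 9, and at 12.8% of all loci, and 0 passed after adjustment (limma adjusted p of 0.114 to 0.365), against 0.0311% of all loci. Of the 9, 3 were tested only through replicates 2 and 3, with neither waxy array well above background. These counts are thus no support for a difference. With replicates 2 and 3 left out, so that replicate 1 alone stood for high-amylose seed, the median was -0.10 and 6 of the 9 loci were lower than in waxy seed. Replicate 1 then lay outside both waxy arrays at 5 loci, against 70.4% of all loci, and 0 had an unadjusted limma p under 0.05, against 5.66%. In that fit the spread comes from the waxy pair alone, and the lone high-amylose array is assumed to vary like it. Without replicate 2 the median was 1.76, and without replicate 3 it was 1.11. In each of those fits the groups did not overlap at 1 antenna locus (21.5% and 24.4% of all loci), 1 had an unadjusted limma p under 0.05 (2.35% and 2.94%), and 0 passed after adjustment (0.0173% and 0.0104%). Leaving out a waxy array leaves 1, assumed to vary like the other group. Without waxy replicate 1 the groups did not overlap at 1 antenna locus (31% of all loci), 5 had an unadjusted limma p under 0.05 (3.62%) and 0 passed (0.259%). Without waxy replicate 2 the groups did not overlap at 5 (35.8%), 5 had an unadjusted limma p under 0.05 (4.58%) and 0 passed (0.632%), with LOC_Os08g33820 at 2.88 (limma adjusted p = 0.0784). With scan date as a random block the median was 1.92. Under that block 0 antenna loci passed, against 0.0207% of all loci, and 1 had an unadjusted limma p under 0.05, against 2.22%. When loci had to be well above background on all 5 arrays, 4 antenna loci were tested. The groups overlapped at each of these, with 12.6% of all loci free of overlap, 3 had an unadjusted limma p under 0.05 (3.84%) and 0 passed (0.0929%).

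**Figure D3:**
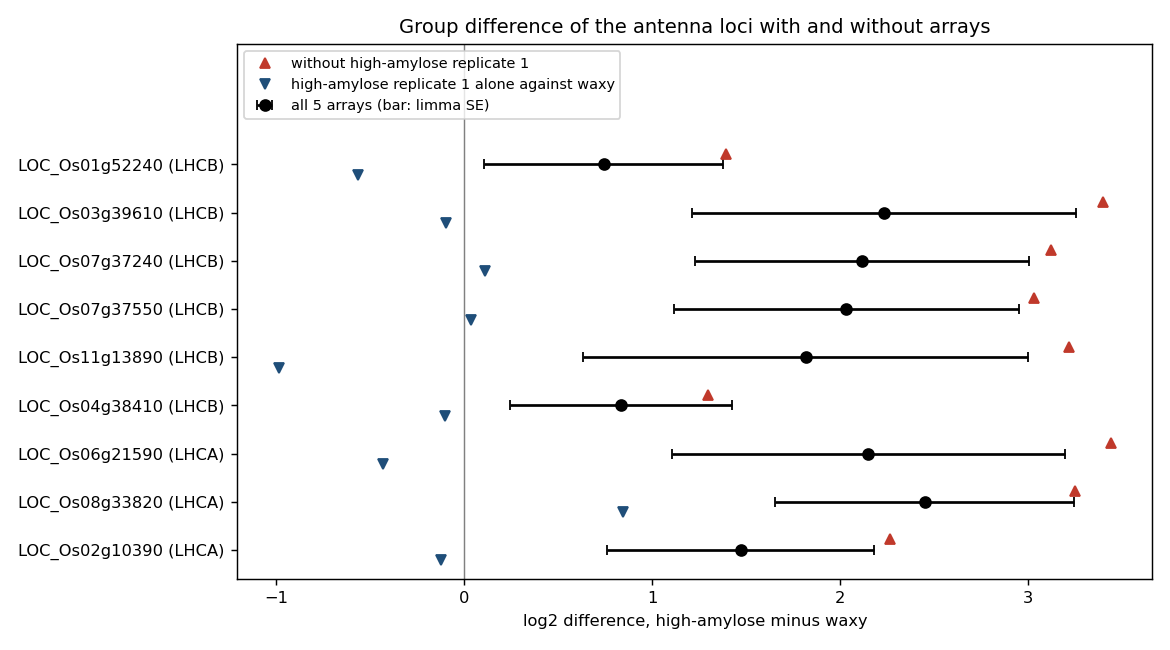
Log2 difference, high-amylose minus waxy (x axis), for the 9 antenna loci (y axis) with all 5 arrays (black points, bars are the limma standard error), without high-amylose replicate 1 (red upward triangles) and with replicate 1 alone against waxy seed (blue downward triangles). The black points lie at 0.74 to 2.45, the red ones at 1.30 to 3.44 and the blue ones at -0.98 to 0.85.

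Other genes of photosynthesis were read from 7 lists of 47 loci, of which 37 were tested. In high-amylose seed 31 were higher and 6 lower, with a median difference of 1.00, where 53.9% of all loci were higher. At 2 photosystem I loci and 1 Rubisco locus neither waxy array was well above background. Those were tested only through high-amylose arrays, so counts of higher loci are no support for a difference. In the limma fit 0 of the 37 passed, against 0.0276% of all loci, and before adjustment the limma p was under 0.05 at 6 of the 37, and at 3.4% of all loci. Photosystem I subunits, which carry the reaction centre that LHCA serves, were higher at 9 of 9 loci, the median difference being 2.21. LOC_Os03g56670 of this list was at -4.01, -2.36 and -0.53 in high-amylose seed and at -5.40 and -4.17 in waxy seed, at least 2.61-fold higher, with a fitted difference of 2.49 (standard error 0.87, limma adjusted p = 1.00). Without waxy replicate 2 its difference was 3.10. This locus was well above background on high-amylose replicates 2 and 3 only, so the size of its difference rests partly on dim spots. LOC_Os07g25430, of the same list, was at 2.42 (standard error 0.87).

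Photosystem II subunits, the complex that LHCB serves, were higher at 7 of 8 loci, the median difference being 1.49, and LOC_Os07g36080 and LOC_Os05g43310 were at 1.98 (standard error 0.70) and 2.09 (standard error 0.86). Of 5 tested loci for Rubisco small subunits and Rubisco activase, 5 were higher, by 0.07 to 2.43 with a median of 1.39. High-amylose replicates 2 and 3 both lay above the other arrays at 3 of the 5, against 25.5% of all loci. LOC_Os12g19381 of this list had a fitted difference of 2.43 and was at least 3.17-fold higher, and LOC_Os11g47970 was at 1.91. Of 6 other antenna loci outside the 9, 3 were tested, with a median of 0.75. LOC_Os09g26810 among them was at 1.25 and LOC_Os07g38960 at 0.75. The remaining tested locus, well above background on all 5 arrays, was at 0.16 and took another order. Its signal was -0.56, -1.19 and -1.21 in high-amylose seed and -1.51 and -0.79 in waxy seed.

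Genes of chlorophyll metabolism differed less between the groups than the antenna loci in these medians. Chlorophyll synthesis had a median of 0.51 over 6 tested loci, 5 higher and 1 lower, with LOC_Os03g20700 at 1.09 (standard error 0.54) and LOC_Os01g17170 at 1.00 (standard error 0.48). Chlorophyll breakdown had a median of -0.27 over 5 loci, 1 higher and 4 lower, with LOC_Os06g24730 at 0.95 and LOC_Os01g12710 at -0.56. The 1 tested regulator of greening, LOC_Os01g13740, was at 0.24 (standard error 0.55). Its highest value, 3.50, was on high-amylose replicate 1, where antenna signal was low. Each named locus of these 7 lists had a limma adjusted p of 1.00 with all 5 arrays.

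**Figure D4:**
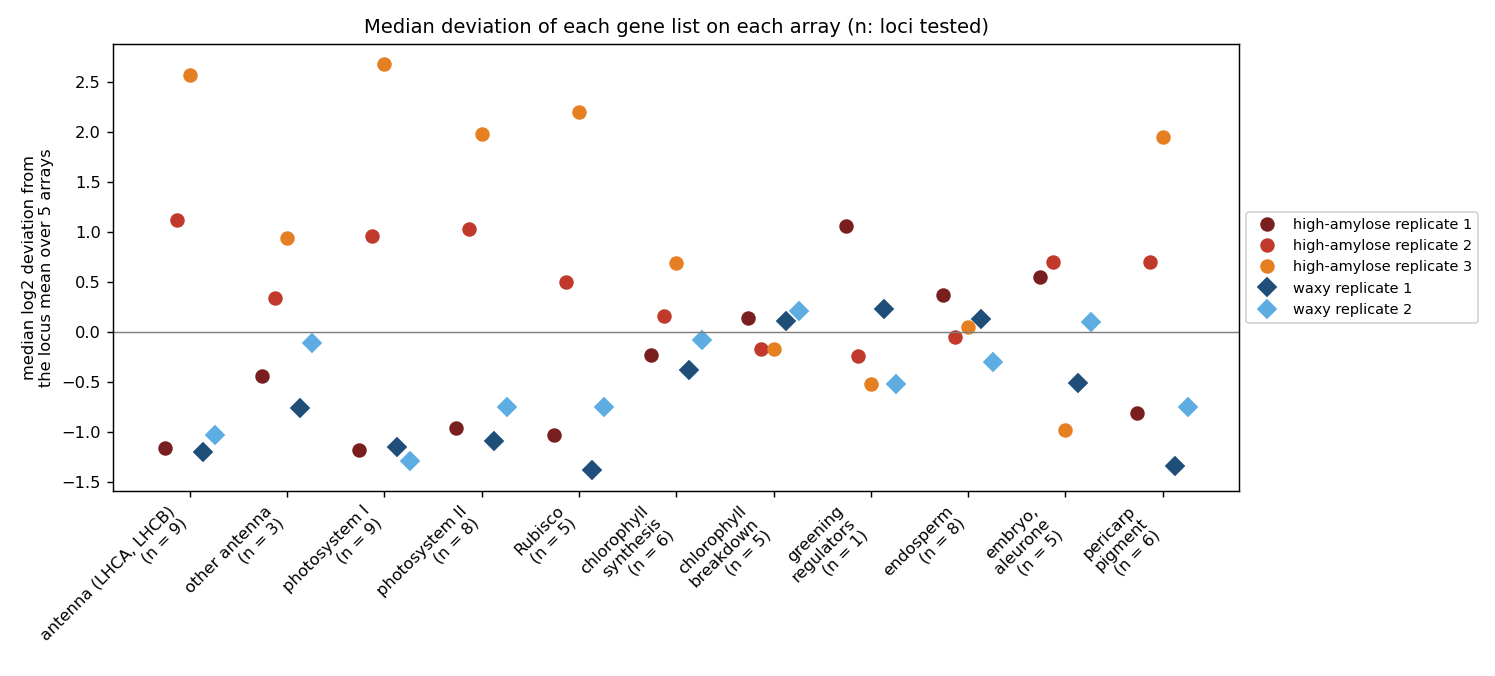
Median over the tested loci of each list (x axis, n loci) of the log2 deviation from the locus's own mean over the 5 arrays (y axis), 1 point per array. The medians of the antenna, other antenna, photosystem I, photosystem II, Rubisco, chlorophyll synthesis and pericarp pigment lists stand highest on high-amylose replicate 3 and next on replicate 2. Single loci depart from their median. Replicates 2 and 3 both lay above the other arrays at 2 of 3 other antenna, 3 of 5 Rubisco and 3 of 6 chlorophyll synthesis loci, against 25.5% of all loci. The chlorophyll breakdown, greening, endosperm and embryo lists take other orders.

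Markers of other seed tissues were read on the same arrays. On high-amylose replicates 1, 2 and 3 the median antenna locus deviated by -1.16, 1.12 and 2.57 from its own mean, and on waxy replicates 1 and 2 by -1.20 and -1.04. Genes of pericarp pigment, a tissue of the outer grain, deviated by -0.81, 0.69 and 1.95 and by -1.34 and -0.76. Both dimmer arrays were on top at 5 of 6 loci, against 25.5% of all loci. At 2 of the 6 loci neither waxy array was well above background. The log2 summed signal of this list was 1.55, 2.34 and 4.27 in high-amylose seed and 0.88 and 0.95 in waxy seed. Of the 6 loci, LOC_Os01g44260 passed the test (limma adjusted p = 0.0406), as did 0.0276% of all loci. It was at least 17.5-fold higher in high-amylose seed, with a fitted difference of 4.46. Under normexp 0 of all tested loci passed, so this call was lost there. LOC_Os01g44260 departed from the antenna order, since high-amylose replicate 1, at 0.40, lay above replicate 2, at -0.33. LOC_Os04g53850 of this list was at 1.21.

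Embryo and aleurone markers, all 5 well above background on every array, deviated by 0.55, 0.70 and -0.99 in high-amylose seed and by -0.51 and 0.10 in waxy seed. Their median deviation and their summed signal were lowest on replicate 3, the array with the most antenna signal, though not every marker was. The log2 summed signal was 10.29, 10.62 and 9.43 in high-amylose seed and 9.49 and 10.02 in waxy seed. Waxy replicate 1 was thus nearly as low as high-amylose replicate 3, though its median antenna deviation was -1.20. The 2 named loci of the list were LOC_Os07g44430 at 0.54 and LOC_Os04g46200 at 0.47. Endosperm markers had log2 summed signals of 12.37, 12.34 and 12.38 in high-amylose seed and 12.33 and 11.91 in waxy seed. Of the 8 tested, 5 were higher and 3 lower in high-amylose seed, with a median difference of 0.19. Their differences ran from -0.46 to the 2.29 of LOC_Os06g04200, and LOC_Os02g15090 was at 0.59. The part of tissue makeup in the antenna differences was not tested.

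The loci whose deviations over the 5 arrays came nearest to the median antenna profile were ranked by the root mean square difference on the log2 scale. Outside the antenna lists the 5 nearest were LOC_Os08g01380 (0.147), LOC_Os06g15400 (0.204), LOC_Os12g08770 (0.230), LOC_Os07g25430 (0.239) and LOC_Os05g43310 (0.284). LOC_Os12g08770 and LOC_Os07g25430 are on the photosystem I list and LOC_Os05g43310 is on the photosystem II list. Among the 100 nearest of the 28945 tested loci were 8 of 9 photosystem I loci, 5 of 8 photosystem II loci and 2 of 5 Rubisco loci. From the other antenna, chlorophyll, greening, endosperm and embryo lists there were 0, and from the pericarp pigment list 1 of 6. The antenna loci themselves, whose median set the profile, held 7 of these places. Between 2 antenna loci this difference ran from 0.205 to 1.23 over 36 pairs, with a median of 0.646.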

How the data were processed

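The spot intensity values were deposited by the authors as single-colour Agilent Feature Extraction output (version 11.5.1.1, background-subtracted and detrended within each array, grid of the IRGSP5 build, per the file headers). Other columns, flags for controls, outliers, saturation and spots well above background, come from the same deposited files. A log2 value table was also deposited by the authors, and limma is named in the submitters' processing notes, with no version. Its differences between arrays matched those of quantile-normalized log2 intensity (r of 0.9997 to 0.9998 and slopes of 0.989 to 0.992 over 10 pairs of arrays). The medians of its columns were -0.0172, 0.0395 and 0.0270 for high-amylose replicates 1 to 3 and -0.0227 and 0.00414 for waxy replicates 1 and 2. Which baseline had been taken off each probe is unknown.

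Control spots were left out, spots of a probe were averaged on the log2 scale without outlier spots, and log2 intensity was set relative to each array's 75th percentile. A probe counted as well above background on an array unless most of its spots there were not. Testing required this on 2 or more arrays, leaving 35634 of 59676 probes. The probe with the highest mean stood for a locus. Of the 12 antenna probes 11 passed, several of them only through high-amylose replicates 2 and 3, so a count over tested members is no support for a difference. The group comparison used the lmFit and eBayes functions of limma 3.58.1 (R 4.3.3), two-sided and without covariates on all 5 arrays, with Benjamini-Hochberg adjustment over all loci and a threshold of 0.05. The fit was tested on simulated data. Where no array of a group was well above background, the difference is given as at least N-fold, against the higher of its own signal and the lowest spot signal well above background on each array. The other group entered at its measured mean, also where an array of it was not well above background. Such a limit rests on the measured signal of that array. Precision is limited by the number of arrays, and an exact permutation test of 3 against 2 arrays cannot go below 0.1. Named loci are all members, up to 2 per further list with the smallest p, and the 5 of nearest profile.

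Normexp was run on median spot signals in place of the planned mean signals. Other alternatives were quantile scaling, the deposited log2 values, other filters and probe rules, scan date as a block, and leaving out arrays. Members and lists were chosen with earlier results of these data known. Other tools were Python 3.11.15, pandas 2.3.3, matplotlib 3.10.9, jsonlite 2.0.0 and version 1.17.8 of the data.table package.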

Additional observations from a re-analysis of the deposited data

How the results depend on the processing

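The 9 antenna loci, tested under 15 alternative settings where they passed the filter, gave 0 called loci and 0 called probes in each. The count of loci without overlap between groups, 1 with all arrays, was 0 with the filter of all 5 arrays (4 loci tested, 12.6% of all loci) and 5 with high-amylose replicates 2 and 3 left out (70.4% of all loci). It ran from 1 to 9 when 1 high-amylose array was left out (21.5% to 48% of all loci), with 3 of the 9 loci tested only through replicates 2 and 3. The median difference of 2.03 became -0.10 with those 2 arrays left out or given a term of their own, and ran from 1.11 to 3.12 when 1 array was left out. In both of these settings the sign turned at LOC_Os01g52240 (-0.56), LOC_Os03g39610 (-0.10), LOC_Os11g13890 (-0.98), LOC_Os04g38410 (-0.10), LOC_Os06g21590 (-0.43) and LOC_Os02g10390 (-0.12), since replicate 1 alone then stood for high-amylose seed. The median difference of replicates 2 and 3 from replicate 1 was 2.99, and 0.86 under normexp, whose added constant compresses dim signals. Calls among the 7 other lists ran from 0 to 1 when 1 array was left out. The number of called loci over all genes was 8 with all arrays, 3 under quantile scaling and with the deposited log2 values, 0 under normexp, with replicates 2 and 3 left out or given a term, 21 with the filter of all 5 arrays, and 3 to 183 when 1 array was left out. At 5 of the 9 loci high-amylose replicate 1 was not well above background, and there the signal limits the size of a difference. No paired analysis was possible because replicate numbers follow the order of deposit and pair no arrays.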
